A study of Homo sapiens with 12 samples.

Results

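The regions newly open in the double line were a set of 407 chromatin regions that were near the detection limit in control HCT116 cells and open in 1 library of the HCT116 line given both EHF and CDX1 (EHF+CDX1). They were chosen by measured values. A region on chromosomes 1 to 22 was taken when its raw read count summed to at most 3 over the 3 empty vector (EV) libraries and was at least 40 in EHF+CDX1 replicate 2. Regions in the EHF and CDX1 genes were left out, because reads of the introduced copies fall there. Of 30170 regions in the table, 29460 lay on these chromosomes, 4404 had at most 3 EV counts, and 407 of those reached 40. The EV libraries and EHF+CDX1 replicate 2 were used up by the choice and are given as a description. EHF+CDX1 replicates 1 and 3 and the 6 libraries of the single-factor lines took no part in it. The tests rest on those 8 libraries, except for an alternative fit of all 12. That fit also takes its spread from the EV libraries. It holds EHF+CDX1 replicate 2 as a group of its own, outside the comparisons.

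Chromatin accessibility was measured by ATAC-seq in HCT116 cells, a long-established line from a human colorectal carcinoma, with 3 libraries per group. The EV cells carried the empty control vector, and the EHF cells were geneticin-resistant clones transfected with an EHF expression plasmid. The CDX1 cells were transduced with a CDX1 retrovirus that also encodes GFP and were sorted for GFP. The EHF+CDX1 cells were made from the CDX1 cells by transfection with the EHF plasmid and selection of resistant clones, so what the 2 factors did and what belongs to the selected clones cannot be told apart. Nothing in the sources says that the libraries of a group came from separate cultures, and p-values then measure the spread between these libraries.

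EHF is a transcription factor of the ETS family, which binds DNA around a GGAA core and is largely expressed in epithelia. CDX1 is a homeobox factor of the caudal family, active in the intestinal epithelium, where it helps to set intestinal identity. Most DNA in a nucleus is wrapped in nucleosomes, and a region counts as open when the Tn5 transposase used in ATAC-seq can cut and tag it. A region that is closed in one state of a cell line and open in another is a candidate place where a factor, or the factors it induces, acts on chromatin.

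The following 7 sequences were picked to show regions with and without matches to known strings and are no random sample of the 407. They were taken from hg38 on the forward strand for regions with the highest counts in EHF+CDX1 replicate 2 or the smallest p-values, outside annotated untranslated regions. Capitals mark matches on either strand to the CDX-type strings TTTATG or TTTATT, the ETS-type strings AGGAAGT or CGGAAGT, and the AP-1 string TGANTCA. The first pair lies at non-coding RNA start sites of chromosome 7 and holds none of these strings.
chr7:63926316-63926489: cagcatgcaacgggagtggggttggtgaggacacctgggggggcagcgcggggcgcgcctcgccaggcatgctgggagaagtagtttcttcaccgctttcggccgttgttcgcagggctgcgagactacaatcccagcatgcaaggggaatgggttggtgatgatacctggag
chr7:63900740-63900890: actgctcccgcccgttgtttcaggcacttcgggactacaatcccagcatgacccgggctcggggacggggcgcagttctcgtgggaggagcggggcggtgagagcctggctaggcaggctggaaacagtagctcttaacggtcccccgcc
The next 4 regions in introns of non-coding genes or between genes held such strings.
chr13:70856865-70857015: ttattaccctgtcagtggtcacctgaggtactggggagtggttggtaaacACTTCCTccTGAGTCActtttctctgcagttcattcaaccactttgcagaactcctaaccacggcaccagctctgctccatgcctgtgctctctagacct
chr2:13558475-13558666: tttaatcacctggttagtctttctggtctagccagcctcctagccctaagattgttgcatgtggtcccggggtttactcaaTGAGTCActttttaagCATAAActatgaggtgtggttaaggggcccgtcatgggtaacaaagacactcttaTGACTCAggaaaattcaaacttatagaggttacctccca
chr13:79441749-79441899: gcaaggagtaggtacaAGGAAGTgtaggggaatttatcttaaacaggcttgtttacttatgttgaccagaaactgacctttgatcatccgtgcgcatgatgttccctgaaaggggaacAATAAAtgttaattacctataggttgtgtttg
chr11:41785027-41785177: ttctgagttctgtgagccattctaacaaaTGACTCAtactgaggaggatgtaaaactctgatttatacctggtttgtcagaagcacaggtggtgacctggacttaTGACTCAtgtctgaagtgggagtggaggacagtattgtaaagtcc
The last matched many other places in the genome.
chr6:61322946-61323119: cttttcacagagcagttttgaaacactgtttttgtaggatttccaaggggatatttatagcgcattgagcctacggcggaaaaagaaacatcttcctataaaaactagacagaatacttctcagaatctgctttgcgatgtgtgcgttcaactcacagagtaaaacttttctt
The chr7 pair was 62.4% and 66.0% GC and shared a run of 18 bases, gactacaatcccagcatg. The region chr13:70856865-70857015 held 1 ETS-type and 1 AP-1 string, chr2:13558475-13558666 held 1 CDX-type and 2 AP-1 strings, chr13:79441749-79441899 held 1 ETS-type and 1 CDX-type string, and chr11:41785027-41785177 held 2 AP-1 strings. The region chr6:61322946-61323119 matched 421 places in hg38 and chr13:79441749-79441899 matched 18, while the other 5 matched their own place only. A match of letters is a description and does not show that a factor binds.

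In the library used for the choice the regions held 40 to 139 counts, with a median of 49, and 60 of them had no count in any EV library. Their summed counts were 232, 287 and 160 in the EV libraries, 396, 612 and 336 in EHF, 494, 636 and 311 in CDX1, 3588 in EHF+CDX1 replicate 1 and 1623 in replicate 3, against 21473 in replicate 2. Scaled to CPM on library sizes adjusted by TMM factors (scaled CPM), the sum lay at 198 to 255 for EV, 249 to 362 for EHF and 307 to 475 for CDX1 libraries, with 2130 and 1348 in EHF+CDX1 replicates 1 and 3, and 4847 in replicate 2. Both EHF+CDX1 libraries that took no part in the choice therefore lay above all 6 single-factor libraries, and the lower of them was 2.84-fold above the highest single-factor library. Their mean was 5.05-fold above the mean of the single-factor libraries (5.68-fold over EHF and 4.54-fold over CDX1). In the other 3997 regions with at most 3 EV counts the same ratio was 2.28-fold. More cells with an open region and a wider opening in each cell cannot be told apart in such bulk data.

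**Figure D1:**
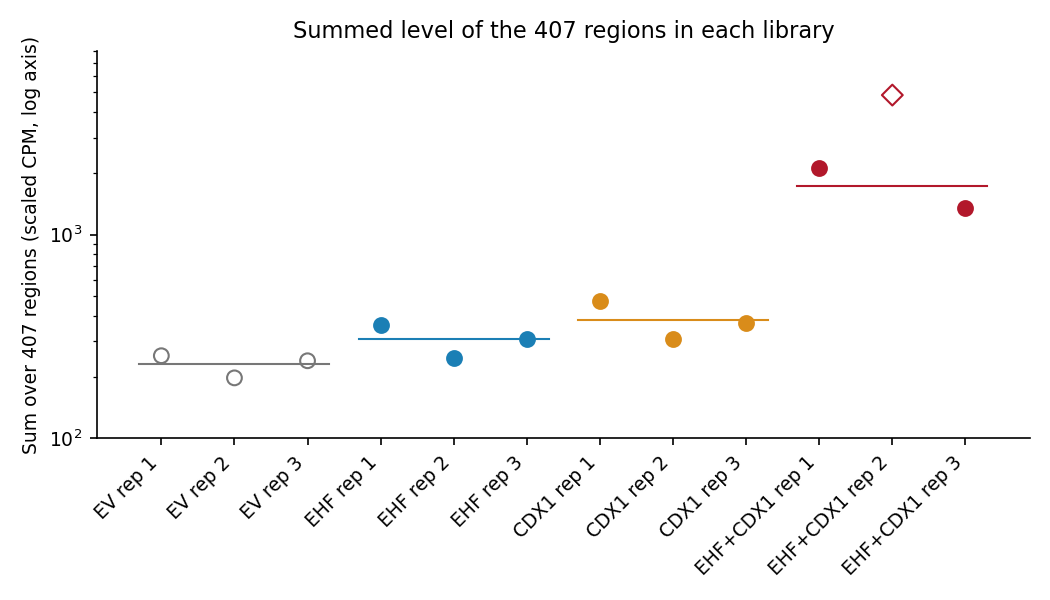
Summed level of the 407 regions in each library, in scaled CPM on a log axis. Open symbols are the libraries used to choose the regions, filled circles the others, and lines the group means (without EHF+CDX1 replicate 2). The 6 single-factor libraries sit between 249 and 475, and EHF+CDX1 replicates 1 and 3 at 2130 and 1348.

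The 3 EHF+CDX1 libraries were not alike. Replicate 2 was 2.28-fold above replicate 1 and 3.60-fold above replicate 3 in the summed level, and replicate 1 was 1.58-fold above replicate 3. The median count per region was 8 in replicate 1 and 3 in replicate 3, against 0 or 1 in each single-factor library. The threshold of 40 counts corresponds to 9.03 scaled CPM, a level that 31 of the 407 regions reached in replicate 1 and 13 in replicate 3. In the single-factor lines 2 regions reached it in CDX1 replicate 1 and 1 in CDX1 replicate 3, and none in the other 4 libraries. A count in both replicates 1 and 3 was present for 372 regions, and 1 region had a count in neither. In the single-factor lines 297 regions never exceeded 3 counts in a library, 11 had no count in any of the 6 libraries, and 110 exceeded 3 in at least 1.

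Depth bears on all of these values. Library totals were 567366 to 2443334 counts with a median of 2 to 22 per region, and the TMM factors ran from 0.346 to 2.62, the highest in EHF+CDX1 replicate 2. Regions that match mitochondrial DNA took 65.1% to 73.9% of the EV libraries and 14.5% to 37.2% of the others. The EV libraries also had the lowest totals, 567366 to 1033248 counts, and the limit of 3 EV counts was set on raw counts. The counts over EHF were 543188 to 1536042 in EHF libraries and 30 to 100 in libraries without the plasmid. In EHF+CDX1 replicates 1, 2 and 3 they were 759842, 91907 and 615080. Those over CDX1 were 524981 to 1916479 in CDX1 libraries, 545352, 77147 and 310557 in EHF+CDX1 replicates 1, 2 and 3, and 18 to 104 in the others. In scaled CPM, EHF+CDX1 replicate 2 held 20746 over EHF and 17414 over CDX1. Replicates 1 and 3 held 451062 and 510871 over EHF, and 323735 and 257941 over CDX1. Of the 407 regions, 1 matched mitochondrial DNA. Start-site regions of the epithelial genes EPCAM and KRT8 held 8.66 to 26.6 and 9.02 to 23.5 scaled CPM over the 12 libraries, KRT18 held 0 to 7.48 and CDH1 had no region. The leukocyte and endothelial genes PTPRC, CD3E, CD79A, PECAM1 and CDH5 and the fibroblast gene DCN had no region at their start sites, while COL1A1 and COL1A2 held 6.53 to 17.3 and 1.10 to 5.91.

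Regions just outside the limits of the rule are given beside those just inside. The 77 regions with 40 to 42 counts in EHF+CDX1 replicate 2 had a mean of 6.81 counts in replicate 1, 2.97 in replicate 3 and 1.09 in a single-factor library. The 130 regions just outside, with 37 to 39 counts, had 6.42, 2.84 and 1.15. Likewise, 225 regions with 2 or 3 EV counts had means of 9.01, 4.15 and 1.25, against 9.83, 4.75 and 2.20 in 153 regions with 4 or 5 EV counts that also reached 40.

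The first comparison asked whether the regions were more open in EHF+CDX1 replicates 1 and 3 than in cells with EHF alone. By edgeR's quasi-likelihood test over all 30154 regions that passed the filter on low counts (a region passes when 1 library reaches 3 CPM), 43 of the 407 regions were higher at an adjusted p under 0.05 and none was lower. Among all regions tested 0.551% were called higher. All 407 regions passed this filter, each through the library it was chosen in. The log2 difference was positive in 399 of 407 regions, with a median of 2.66 (2.36 when regions without a count in EHF are set to their lower bound over 3 counts per library), against 0.06 over all regions tested. The count rested on few libraries. Leaving out EHF+CDX1 replicate 1 lowered it to 3 and leaving out EHF+CDX1 replicate 3 to 28, while it fell to 10 when EHF replicate 2 was dropped and to 21 when EHF replicate 3 was. At an unadjusted p under 0.05, 265 regions were higher, against 8.21% of all regions tested, and in 289 both EHF+CDX1 libraries lay above all 3 EHF libraries, against 16.0%. Of the 3983 other tested regions with at most 3 EV counts, 1.33% were called higher. A positive difference was found in 85.3% of them and in 53.2% of all regions tested. Among the 3983, 980 were higher at that unadjusted p, and in 1543 both EHF+CDX1 libraries lay above all 3 EHF libraries.

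Against cells with CDX1 alone, the line from which the double line was made, 20 regions were called higher and none lower, beside 0.226% of all regions tested. The log2 difference was positive in 397 regions, with a median of 2.41 (2.09 with bounds) against 0.10 over all regions. This count fell to 1 when EHF+CDX1 replicate 1 was dropped and to 13, 7 and 12 when CDX1 replicates 1, 2 and 3 were dropped in turn, and it rose to 32 when EHF replicate 2, which enters through the shared estimate of the spread, was dropped. At an unadjusted p under 0.05, 230 regions were higher (7.33% of all regions tested), and in 279 the libraries did not overlap (17.1% of all). Of the 3983 other tested regions with at most 3 EV counts, 0.251% were called higher. A positive difference was found in 83.3% of them and in 54.7% of all regions tested. Among the 3983, 779 were higher at that unadjusted p, and in 1412 the EHF+CDX1 libraries lay above all CDX1 libraries.

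Set against the mean of both single-factor lines, 131 regions (32.2%) were called higher and none lower, where 1.80% of all regions tested and 5.15% of the other regions with at most 3 EV counts were called. The median log2 difference was 2.69 (2.59 with bounds), against 1.52 in those other regions and 0.09 over all. Dropping EHF+CDX1 replicate 1 left 6 calls, dropping CDX1 replicate 2 left 75, and DESeq2 made 13. At an unadjusted p under 0.05, 300 regions were higher (10.4% of all regions tested), and in 241 both EHF+CDX1 libraries lay above all 6 single-factor libraries (9.09% of all). Among the 3983 other tested regions with at most 3 EV counts, 1263 were higher at that unadjusted p. In 984 of these 3983 both EHF+CDX1 libraries lay above all 6. Of the 131 called regions, 15 were called against each single line on its own and 83 against neither. In 109 of them no single-factor library exceeded 3 counts, and 8 had no count there at all. The called regions had a median of 11 counts in replicate 1 and 5 in replicate 3, and the 276 not called had 6 and 3. These 3 comparisons share the EHF+CDX1 libraries and are not independent of each other.

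**Figure D2:**
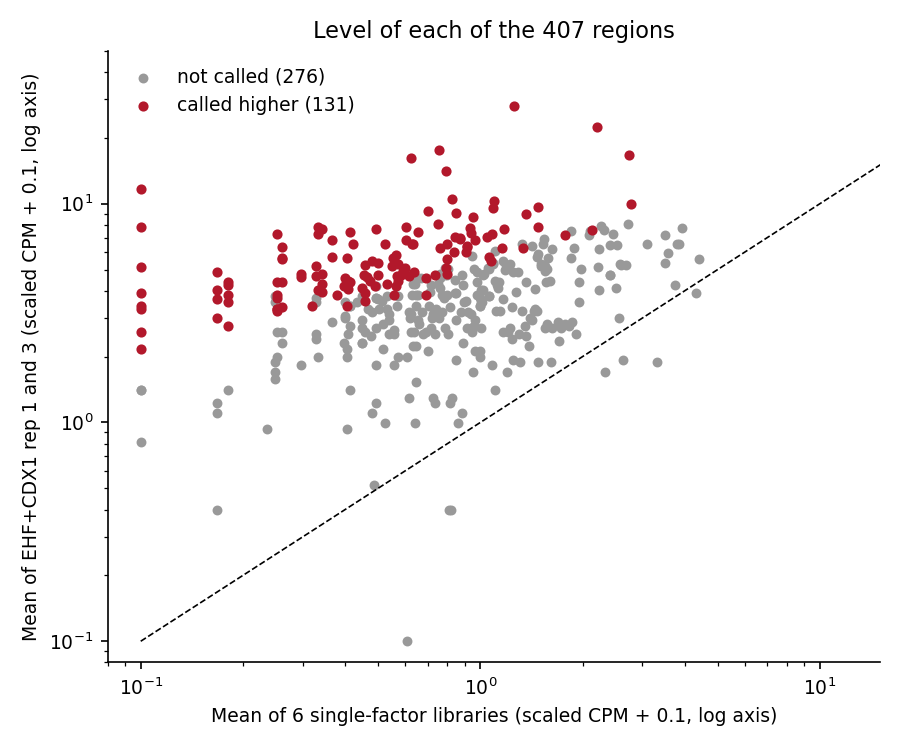
Mean level of each of the 407 regions in EHF+CDX1 replicates 1 and 3 against its mean in the 6 single-factor libraries, in scaled CPM plus 0.1 on log axes. The 131 regions called higher are red, the 276 others grey, and the dashed line marks equal levels. The log2 difference was positive in 401 of the 407 regions, beside 87.2% of the other regions with at most 3 EV counts and 54.8% of all regions tested.

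**Figure D3:**
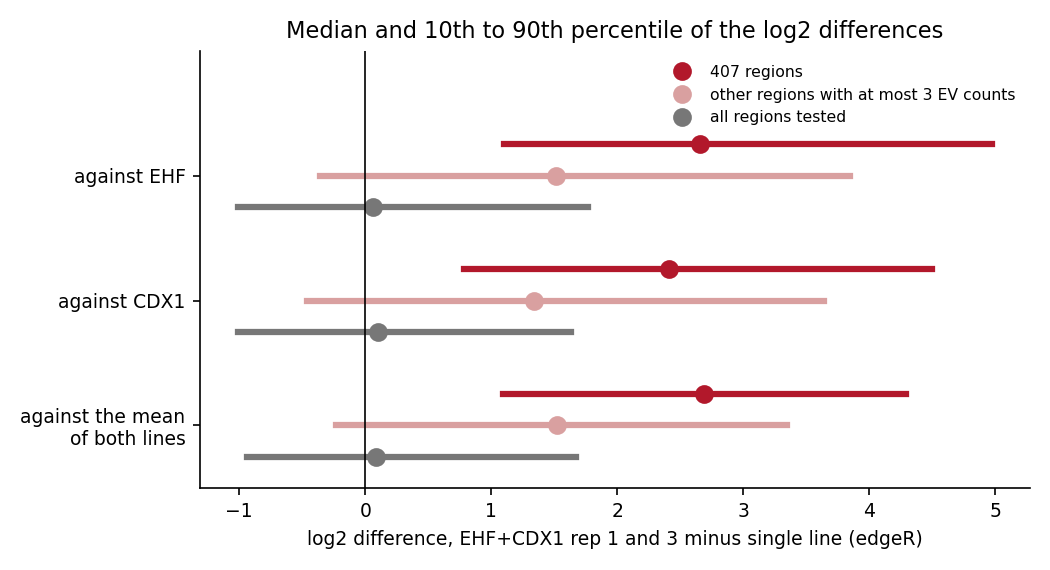
Median (point) and 10th to 90th percentile (bar) of the edgeR log2 difference between EHF+CDX1 replicates 1 and 3 and the single-factor lines. The medians of the 407 regions are 2.66, 2.41 and 2.69, those of the other regions with at most 3 EV counts 1.52, 1.34 and 1.52, and those of all regions are near 0.

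The 2 single-factor lines were also compared with each other at these regions. No region was called by edgeR, beside 0.0531% of all regions tested, and DESeq2 and limma-voom called none either. The smallest adjusted p was 0.266. At an unadjusted p under 0.05, 22 regions differed (5 higher in EHF and 17 lower), against 3.79% of all regions. The count was 1 without CDX1 replicate 1 and 2 without CDX1 replicate 2. A p that misses the threshold does not show that the lines were equal at these counts.

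The region with the highest count in the library of the choice, and with the smallest p-value, lay at chr9:79571558-79571894 over an exon and the start site of TLE4, a transcriptional co-repressor of the Groucho family. It held 0, 2 and 1 counts in EV, 0, 0 and 5 in EHF, 0, 0 and 2 in CDX1, 53 and 29 in EHF+CDX1 replicates 1 and 3, and 139 in replicate 2. EHF+CDX1 replicates 1 and 3 both stood far above all single-factor libraries, where both lay above them in 9.09% of all regions tested. The mean was 27.8 ± 5.22 scaled CPM (SD, n = 2) against 1.52 ± 2.64 in EHF and 0.788 ± 1.37 in CDX1 (SD, n = 3 each). The log2 difference from the mean of both lines was 5.02 ± 0.54 (SE), with an edgeR adjusted p of 2.83e-12, and the call held under each left-out library. DESeq2 gave 4.77 with an adjusted p of 0.774, and the cause of that gap was not tested.

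Gene starts made up a small share of the regions. Of the 407 regions, 53 lay within 1 kb of an annotated start site, and 27 of these (50.9%) were called against the mean of both lines, against 17 of 73 (23.3%) at 1 to 10 kb and 87 of 281 (31.0%) at over 10 kb. All 53 had a positive difference, with a median log2 difference of 3.18 and a 6.57-fold higher summed level. At gene starts a positive difference was also found in 561 of 667 other regions with at most 3 EV counts. Over all gene-start regions tested it was found in 7964 of 13940. Among the other regions with at most 3 EV counts the called share was also highest at gene starts, with 51 of 667 (7.65%). It was 4.98% at 1 to 10 kb and 4.50% at over 10 kb. Their summed ratio was lowest at gene starts, 2.02-fold against 2.31-fold and 2.40-fold. Over all regions tested the order was another, with 1.03% called at gene starts, 1.97% at 1 to 10 kb and 2.78% at over 10 kb. The difference between position classes was not tested.

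Start sites of ZNF736, which encodes a C2H2 zinc finger protein, were covered by 2 of the regions on chromosome 7. That at chr7:64313820-64313987 held 1, 0 and 0 counts in EV, 0, 3 and 0 in EHF, 1, 2 and 0 in CDX1, 29 and 18 in EHF+CDX1 replicates 1 and 3, and 48 in replicate 2. The log2 difference from the mean of both lines was 4.40 ± 0.60 (SE, edgeR adjusted p = 1.04e-09). KCNV1 encodes a modifier subunit of voltage-gated potassium channels. An exon 130 bp from its start, at chr8:109974434-109974600, held 0, 0 and 2 counts in EV, 1, 1 and 1 in EHF, 0, 4 and 0 in CDX1, 29 and 13 in EHF+CDX1 replicates 1 and 3, and 55 in replicate 2 (4.02 ± 0.61, edgeR adjusted p = 1.29e-07). BBOX1 encodes the last enzyme of carnitine synthesis. Its start at chr11:27055205-27055415 held 1, 2 and 0 counts in EV, the same numbers in EHF, 1, 1 and 1 in CDX1, 21 and 10 in EHF+CDX1 replicates 1 and 3, and 70 in replicate 2 (3.75 ± 0.69, edgeR adjusted p = 6.61e-05). PLSCR2 belongs to the phospholipid scramblase family. Its start at chr3:146469427-146469581 held 1, 0 and 0 counts in EV, 2, 1 and 2 in EHF, 2, 0 and 0 in CDX1, 23 and 8 in EHF+CDX1 replicates 1 and 3, and 42 in replicate 2 (3.60 ± 0.69, edgeR adjusted p = 0.00016). At none of these 4 start sites did the EHF+CDX1 libraries overlap the single-factor libraries. They were named for small p-values in this same comparison, so this separation follows largely from the choice. It held in 9.09% of all regions tested. Without EHF+CDX1 replicate 1 the calls at KCNV1, BBOX1 and PLSCR2 were lost (adjusted p of 0.0669, 0.192 and 0.356), and the call at ZNF736 was kept.

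Some of the gene starts belonged to genes with a ZNF symbol, a group picked by symbol after the values were seen and not tested. Of the 32 regions within 1 kb of a protein-coding start site, 9 (28.1%) had a gene with a ZNF symbol as the nearest, against 31 of 495 (6.26%) of the other regions with at most 3 EV counts and 380 of 12017 (3.16%) of all regions at coding starts. Of those 9, 7 were called higher than the mean of both lines, where 20 of all 32 were called. At ZNF starts 10 of the 31 other regions with at most 3 EV counts were called, and 20 of the 380 over all regions. At ZNF529 on chromosome 19, where no single-factor library had a count, there were 10 and 5 counts in EHF+CDX1 replicates 1 and 3 and 40 in replicate 2. At ZNF253 the EHF+CDX1 replicates 1 and 3 had 9 and 4 counts, and the single-factor libraries 2 in CDX1 replicate 1, 1 in EHF replicate 1 and none elsewhere. At ZNF420 and ZNF140 the adjusted p values were 0.0686 and 0.112, and these were not called. Other called gene starts included DACH1, a transcriptional regulator of the dachshund family, and SYT1, a synaptic vesicle calcium sensor, also named after their values were seen. DACH1 had 10 and 6 counts in EHF+CDX1 replicates 1 and 3 and 1 count over the 6 single-factor libraries, and SYT1 had 10 and 4 against 3.

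**Figure D4:**
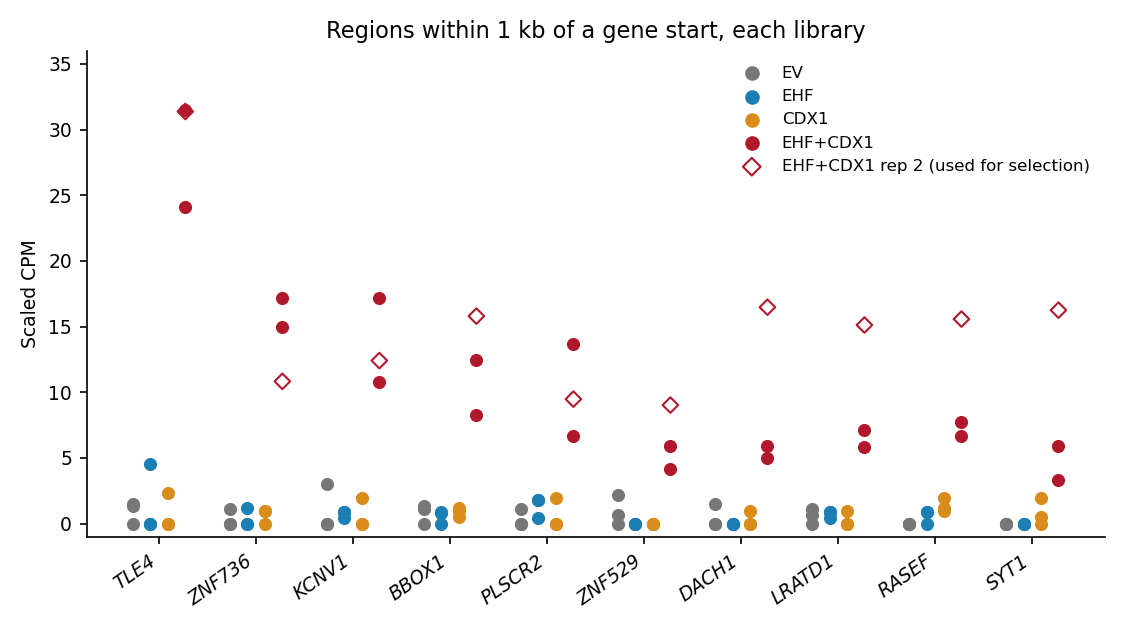
Scaled CPM in each library for 10 regions within 1 kb of a gene start that were called against the mean of both single-factor lines, named by the nearest start. Points are libraries coloured by group, and the open diamond is EHF+CDX1 replicate 2, which was used for the choice. The 10 were picked from the 27 called gene-start regions after their values were seen. In all 10, EHF+CDX1 replicates 1 and 3 lie above every single-factor library, with TLE4 highest at 31.5 and 24.1. Such separation held in 9.09% of all regions tested and not at every called gene start. At chr7:20304459-20304609, also called, EHF+CDX1 replicates 1 and 3 held 11 and 0 counts and CDX1 replicate 1 held 1.

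Only 57 of the 407 regions lay within 100 kb of another, in 24 pairs and 3 clusters of 3, and 350 stood alone. The tightest of these clusters spanned 26.3 kb at chr7:63900177-63926489. Its 3 regions lay at or beside start sites of long non-coding RNAs, and ZNF722 was the nearest protein-coding gene. All 3 were called, beside 32.2% of the 407 and 1.80% of all regions tested. The region chr7:63926316-63926489, whose sequence heads the list above, held 0, 0 and 1 counts in EV, 0, 2 and 0 in EHF, 2, 0 and 1 in CDX1, 38 and 15 in EHF+CDX1 replicates 1 and 3, and 120 in replicate 2, a log2 difference of 4.75 ± 0.59 (SE, edgeR adjusted p = 2.22e-11). The region chr7:63900740-63900890 had no count in any single-factor library, 12 and 10 in EHF+CDX1 replicates 1 and 3 and 67 in replicate 2, at least 3.17-fold higher against a floor of 3 counts per library (edgeR adjusted p = 1.03e-05). The region at LINC02848 had 9 and 4 counts against 3 over the 6 single-factor libraries (edgeR adjusted p = 0.0203). Of the other clusters, that at chr2:142321926-142415775 with LRP1B, a large lipoprotein receptor family member, as the nearest coding gene, had 1 called region. That at chr3:167978204-168091532 in and around GOLIM4, which encodes a Golgi membrane protein, had 2.

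Most of the regions lay outside exons and away from start sites. Of the 407 regions, 198 were intergenic, 173 intronic and 36 exonic, and 281 lay over 10 kb from any start site. The median distance to a protein-coding start site was 128149 bp, against 50614 bp in the other regions with at most 3 EV counts and 7656.5 bp over all 30170 regions. Start sites were within 1 kb for 53 of the 407, against 16.8% and 46.2% of these sets. The median GC content was 46.0%, beside the 46.7% of the other regions with at most 3 EV counts and under the 56.1% of all regions. None of these differences was tested.

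Several distal regions, named for their small p-values, carried large differences. The region chr4:189233876-189234049, intergenic and 40777 bp from the nearest start site, held 0, 1 and 0 counts in EV, 3, 2 and 1 in EHF, 5, 2 and 2 in CDX1, 53 and 16 in EHF+CDX1 replicates 1 and 3, and 76 in replicate 2 (log2 difference 3.62 ± 0.47, SE, edgeR adjusted p = 9.73e-11). Its sequence is repetitive and matched 73 places in hg38. The region chr2:195330716-195330887, with SLC39A10, a zinc transporter gene, as the nearest coding gene at 245090 bp, held 2, 1 and 0 counts in EV, 1, 1 and 2 in EHF, 4, 6 and 5 in CDX1, 31 and 18 in EHF+CDX1 replicates 1 and 3, and 69 in replicate 2 (3.10 ± 0.50, edgeR adjusted p = 1.48e-06). Here the CDX1 libraries all lay above the EHF libraries, and EHF+CDX1 above both. The region chr11:41785027-41785177 in an intron of LINC01499, with its 2 AP-1 strings, had 1 count over the single-factor libraries against 13 and 8. Its ratio of pooled levels was 62.6, with an exact 95% counting interval of 10.1 to 2588. The region chr6:61322946-61323119 had none there against 29 and 7, at least 4.74-fold higher (edgeR adjusted p = 9.02e-10, DESeq2 adjusted p = 0.798), and 2, 0 and 1 counts in EV. Without EHF+CDX1 replicate 1 the calls of the chr4, chr6 and chr11 regions were lost (adjusted p of 0.0981, 0.0522 and 0.069).

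The 10 regions with the highest counts in EHF+CDX1 replicate 2 did not all repeat in the other libraries. Of these, 5 lay on chromosome 13 and 3 on chromosome 2. Of the 10, 8 were called against the mean of both lines. The called share was 32.2% of the 407, 5.15% of the other regions with at most 3 EV counts and 1.80% of all regions tested. The region chr13:58056602-58056752 held 109 counts in replicate 2 and 9 and 7 in replicates 1 and 3, against 2 over the single-factor libraries (ratio 23.8, exact 95% counting interval 5.60 to 214, edgeR adjusted p = 0.00699). The region chr13:70856865-70857015, with the ETS-type and AP-1 strings, held 105, 15 and 10, against 9 over the single-factor libraries (log2 difference 3.06 ± 0.70, SE, edgeR adjusted p = 0.00372). The region chr2:13558475-13558666 held 101, 19 and 5, against 4 (3.99 ± 0.82, adjusted p by edgeR 0.000747). The region chr13:108154450-108154600 held 99, 13 and 4, against 2 (ratio 25.3, exact 95% counting interval 6.01 to 226, edgeR adjusted p = 0.00329). Without EHF+CDX1 replicate 1 these 4 calls were lost (edgeR adjusted p of 0.218, 0.253, 0.497 and 0.399), as they were with DESeq2 (0.266, 0.144, 0.089 and 0.274). Of the calls among the 10, those at TLE4 and chr7:63926316-63926489 alone were kept without that library, and that at chr7:63926316-63926489 alone with DESeq2. The call at chr13:58056602-58056752 was also lost without EHF+CDX1 replicate 3 (edgeR adjusted p = 0.0587). Those not called were chr13:79441749-79441899, with 98, 15 and 4 counts against 12 (edgeR adjusted p = 0.0965), and chr13:68023852-68024002, with 89, 4 and 3 against 4 (edgeR adjusted p = 0.184).

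At the opposite end, 18 regions held at most 3 counts over EHF+CDX1 replicates 1 and 3 together. The highest of them in replicate 2 were chr5:29068480-29068630, in an intron of LINC02109, with 59 counts in replicate 2 against 1 and 2 in replicates 1 and 3, and chr2:163213847-163213997, with 56 against 3 and 0. A count of 3 corresponds to 0.677 scaled CPM in replicate 2, 1.78 in replicate 1 and 2.49 in replicate 3, and the threshold level of 9.03 corresponds to 15.2 counts in replicate 1 and 10.9 in replicate 3.

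Genes of intestinal differentiation were looked up from lists. Of 84 tested regions in the body of, or within 50 kb of a start site of, 34 genes of colonic and enterocyte differentiation, 1 was among the 407 and 3 were called higher in EHF+CDX1 replicates 1 and 3 than in the mean of both lines, where 1.80% of all regions tested were called. For 24 intestinal transcription factors, 3 of 85 regions were among the 407 and 2 were called. For 23 genes of epithelial junctions and keratins 1 of 103 was among the 407 and 1 was called, and for 12 intestinal stem cell genes (22 regions), 16 ETS family genes (53), 4 squamous (2) and 6 mesenchymal genes (11) none of the 407 lay there and none was called. The ETS factor ELF1 was counted with the intestinal transcription factors and not in the ETS list. The 4 gastric genes had no region. None was called lower in any list, and none of the 5 newly open regions at listed genes passed the test. The median log2 difference was 0.50 over the differentiation regions, 0.62 over the transcription factor regions, 0.30 for stem cell, 0.40 for junction and keratin, 0.19 for ETS, 0.72 for squamous and -0.68 for mesenchymal genes, against 0.09 over all regions tested.

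At CDX2, the caudal factor related to CDX1, the region chr13:27960837-27960987 in an exon held 1, 3 and 0 counts in EHF, 2, 5 and 0 in CDX1, 8 and 6 in EHF+CDX1 replicates 1 and 3, and 47 in replicate 2 (log2 difference 1.96 ± 0.80, SE, edgeR adjusted p = 0.194). Near KLF5, an epithelial zinc finger factor, the region chr13:73041149-73041299 held 0, 3 and 0 in EHF, 0, 3 and 3 in CDX1, 6 and 6 in EHF+CDX1 replicates 1 and 3, and 43 in replicate 2 (2.02 ± 0.87, edgeR adjusted p = 0.230). In an intron of ELF1, an ETS factor, chr13:41005862-41006012 held 4 and 3 counts in EHF+CDX1 replicates 1 and 3 and up to 6 in a CDX1 library (0.84 ± 0.93, edgeR adjusted p = 0.730). Near CEACAM6, a cell adhesion gene of colonic epithelium, the region chr19:41774597-41774747 held 10 and 5 counts in EHF+CDX1 replicates 1 and 3 and 1, 7 and 2 in EHF (1.20 ± 0.69, edgeR adjusted p = 0.417). Near EPCAM, an epithelial adhesion gene, chr2:47309880-47310030 held 8 and 0 counts in EHF+CDX1 replicates 1 and 3, against up to 4 in a single-factor library (1.34 ± 0.96, edgeR adjusted p = 0.541).

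The regions were spread unevenly over the chromosomes. Chromosome 13 held 70, chromosome 2 held 67, chromosome 3 held 48 and chromosome 7 held 43, together 56.0% of the 407, where the same chromosomes held 28.6% of all regions and 42.7% of those with at most 3 EV counts. There was none on chromosomes 14, 15 and 16, and 1 each on 10, 17 and 20. On chromosome 13 the 407 made up 5.58% of all regions, against 2.23% on chromosome 7 and 2.14% on chromosome 2. The chromosome 13 regions also counted few calls, 10 of 70, with a median log2 difference of 2.31 and a 4.28-fold higher summed level, whereas chromosome 7 had 20 calls of 43 with 3.17 and 6.68-fold. Regions with over 3 EV counts, which the rule did not take, had median log2 differences between the same libraries of -0.38 on chromosome 10 to 0.31 on chromosome 19, with 0.21 on chromosome 13 and 0.17 on chromosome 7. The part of these chromosome-wide differences in the distribution of the 407 was not tested. Off chromosome 13, 121 of 337 regions were called. Over all chromosomes 32.2% of the 407, 5.15% of the other regions with at most 3 EV counts and 1.80% of all regions tested were called. Called shares of other regions were not counted by chromosome.

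**Figure D5:**
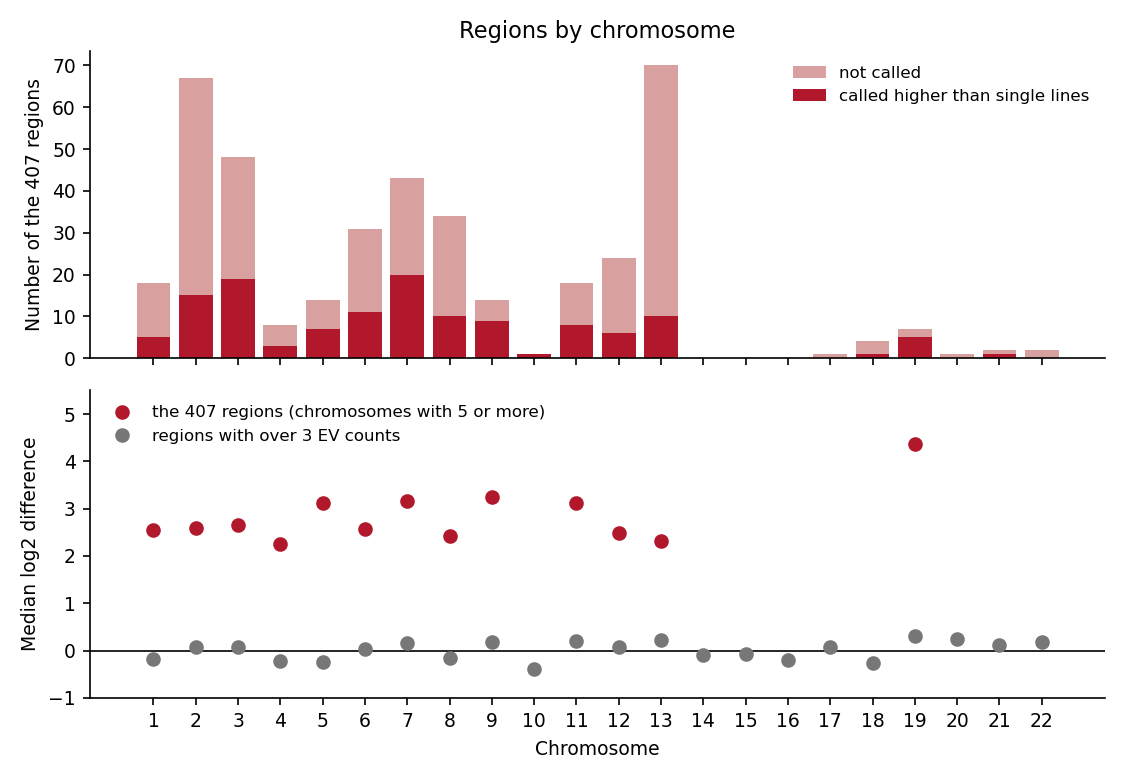
Upper panel, number of the 407 regions on each chromosome, with those called higher than the mean of both single-factor lines in dark red. Lower panel, median log2 difference between EHF+CDX1 replicates 1 and 3 and the mean of both lines, for the 407 regions (red, chromosomes with at least 5) and for regions with over 3 EV counts (grey). The red medians run from 2.25 to 4.38, and the grey ones from -0.38 to 0.31.

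Some of the regions lay in sequence that the genome holds more than once. At an identity of at least 90% over at least 80% of their length, 94 of the 407 (23.1%) matched more than 1 place in hg38, against 618 of 3997 (15.5%) of the other regions with at most 3 EV counts, and 36 matched 100 places or more, up to 4634. The authors kept uniquely mapped reads, so counts in such regions come from reads that differ between the copies. Of the 94 regions, 36 (38.3%) were called against the mean of both lines and their summed level was 6.40-fold higher. Of the 313 regions with a single place, 95 (30.4%) were called and the summed level was 4.72-fold higher. The other regions with at most 3 EV counts had the same order. With more than 1 place, 53 of 610 tested (8.69%) were called and the summed level was 3.01-fold higher. With a single place, 152 of 3373 (4.51%) were called and the summed level was 2.18-fold higher. Over all regions tested 1.80% were called. The differences between regions with 1 and with more places were not tested.

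Short motifs were counted in the regions of exactly 150 bp, the length of 383 of the 407 and of 57.5% of all regions, on both strands and with a base allowed to belong to more than 1 match. A CDX-type string (TTTATG or TTTATT) was present in 35.5% of the 383, against 31.2% of the other regions with at most 3 EV counts and 17.8% of all regions. The same letters reversed (GTATTT or TTATTT) were present in 16.7%, 17.6% and 11.9%. Over 1 kb from a start site the CDX-type shares were 38.2%, 34.3% and 24.0%, and within the GC range of 41.3% to 52.0% they were 43.1% in the newly open and 26.8% in all distal regions, with 16.1% and 17.0% for the reversed letters. The other regions with at most 3 EV counts, the closer comparison, were not counted within that GC range. Among the called regions 28.6% held a CDX-type string, and among those not called 38.4%.

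The ETS-type strings AGGAAGT or CGGAAGT were present in 9.66% of the 383, against 8.09% of the other regions with at most 3 EV counts and 8.16% of all regions, and the reversed letters (TGAAGGA or TGAAGGC) in 5.48%, 5.69% and 4.80%. Both a CDX-type and an ETS-type string occurred in 14 of the 383 (3.66%), against 2.53% and 1.34%. The FOX string TGTTTAC was present in 19.8%, against 12.4% and 6.34%, and the HNF1-type string GTTAAT in 42 of the 383, against 7.68% and 4.56%. The GATA string AGATAA was present in 13.6%, against 13.7% and 7.28%, the TEAD string GGAATG in 46 of the 383, against 10.8% and 10.7%, and the AP-1 string TGANTCA in 16.7%, against 18.3% and 18.5%. Of 112 called regions 28 held the AP-1 string, and of 271 not called 36. The sets differed in GC content, and none of these differences was tested.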

How the data were processed

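ATAC-seq was measured in 12 HCT116 libraries, 3 per group, with groups taken from the sample labels. The deposited table holds raw read counts per region, made by the authors with Subread 2.0.0, HOMER 4.7 and featureCounts 2.0.0 per the submitters' processing notes. Uniquely mapped reads on hg38 were kept, and peaks called per sample were merged. The authors also deposited log2 CPM values, which were not used here. The 407 regions, the gene lists and the tests were chosen with earlier results of these data known.

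Counts were tested with edgeR 4.0.16 (R 4.3.3; TMM, robust quasi-likelihood, Benjamini-Hochberg adjustment) over 30154 regions reaching 3 CPM in at least 1 library, with 8 libraries in the fit (common biological coefficient of variation 0.306). DESeq2 1.42.0 and limma 3.58.1 were alternatives. Values are counts as deposited or CPM on TMM-scaled library sizes. Library totals ran from 567366 to 2443334 counts, and intervals and floors cover counting error only. Annotation came from GENCODE release 44, and copies in hg38 were found with blastn 2.17.0. The fit was tested on simulated data.

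Regions named were the 10 with the highest count in EHF+CDX1 replicate 2, the 12 with the smallest p against the mean of both lines, those at listed genes, the 2 highest in replicate 2 among those with at most 3 counts over replicates 1 and 3, any called between EHF and CDX1, and clusters of at least 3 within 100 kb. Others were named after their values were seen, as stated. Some of the regions this rule names are not reported here.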

Additional observations from a re-analysis of the deposited data

How the results depend on the processing

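The summed level stayed above the single-factor lines under every alternative run (5.05-fold as reported, 3.91-fold to 6.18-fold with 1 library left out), while the counts of called regions moved. With the replicate number as a replicate block, 16, 10 and 38 regions were called against EHF, CDX1 and the mean of both lines, in place of 43, 20 and 131. The numbers name no shared culture, but the sample numbers in the titles run through all replicates 1, then 2, then 3. Once the mean of its group was taken off each library's log CPM, same-numbered libraries correlated at -0.013 to 0.317. The highest value was in the only pair of replicates 2. Median counts per region were highest in replicate 2 of every group (EV 6, EHF 11, CDX1 9, EHF+CDX1 22). Elsewhere they were 2 to 7. The 407 regions were chosen in a replicate 2, while the tests set EHF+CDX1 replicates 1 and 3 against all 3 of each single line. Whether the replicate number marks libraries prepared together was not tested. DESeq2 called 4, 3 and 13, and scaling by library size alone 0, 1 and 10. Against EHF and CDX1, limma-voom with quantile normalization called 68 and 66, and a fit of all 12 libraries 72 and 33. With 1 library left out the counts ran from 3 to 60 against EHF, 1 to 32 against CDX1, 6 to 124 against the mean and 0 to 2 between EHF and CDX1. Leaving out replicate 2 of both single lines, chosen after seeing the data, gave 20, 11 and 59. The cause of these shifts was not tested. Other rules of choice change the number of regions: a minimum of 60 counts gave 20, 10 and 40 of 80 regions, no EV count 6, 2 and 19 of 60, and a minimum of 30 gave 199 of 984 against the mean. Called against the mean were thus 31.7% with no EV count, 20.2% with a minimum of 30 and a higher share with a minimum of 60, beside 32.2%. Of 22 called named regions, 4 kept their call under all 18 settings and 22 kept a positive difference.

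Without EHF+CDX1 replicate 1 the log2 difference turned to -3.58 near EPCAM, -2.48 at chr2:163213847-163213997 and -0.58 at chr2:142321926-142322076, none of them called as reported. Over all single left-out libraries these values ran up to 2.68, 1.94 and 2.54. Medians of 0 to 8 counts per region outside the library of the choice limit what a single region can show. The share of repeat-masked bases, planned as a feature, was not computed because the genome used carries no masking.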
